A study of Homo sapiens with 6 samples.

Results

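The alpha and beta tubulin genes TUBA1A, TUBA1B, TUBA1C, TUBA4A, TUBB, TUBB2A, TUBB2B, TUBB3, TUBB4B and TUBB6 were followed in cardiomyocytes derived from the stem cell line H9. They are 10 of the 21134 genes listed for the series, 4 alpha and 6 beta, found by gene symbol. They were chosen by their levels in these same libraries, because several of them shift together in alcohol-exposed against control cells, so their differences from control are described here without a test. All 10 passed the filter on low counts and were among the 14926 genes tested.

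RNA was sequenced from 3 groups of 2 libraries each. The control cells had neither alcohol nor losartan, and the alcohol cells had 100 mM alcohol for 24 h. The co-treated cells had 100 mM alcohol together with 1 μM losartan, a blocker of the angiotensin II type 1 receptor, for 24 h. No losartan-only group was analysed here, and all cells came from 1 line, which the labels call hiPSC-CM although H9 was derived from a human embryo and not by reprogramming. Libraries are named by group and replicate number, and a level is the deposited FPKM, the estimated fragments of a gene scaled by transcript length and by how many were mapped in that library. Each library held 4898287 to 5051448 expected counts.

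Alpha and beta tubulin form the heterodimer from which microtubules are built. Each subunit is encoded by several genes, the isotypes, which differ most at the acidic carboxy-terminal tail. In cardiomyocytes microtubules carry cargo, shape the cell and add resistance to contraction. Cells also set the amount of tubulin mRNA by autoregulation: when free dimers are in excess, the factor TTC5 recognises the first amino acids of a nascent tubulin on the ribosome and the mRNA is degraded.

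The start of each coding sequence is shown because it encodes the stretch read in this autoregulation. The letters are the first 30 bases of the coding sequence of 1 GENCODE transcript a gene, 5′ to 3′, with the first 4 codons in capitals.
TUBA1A, TUBA1B and TUBA1C: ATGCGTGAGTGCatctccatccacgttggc
TUBA4A: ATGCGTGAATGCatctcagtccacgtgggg
TUBB: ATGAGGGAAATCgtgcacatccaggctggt
TUBB2A: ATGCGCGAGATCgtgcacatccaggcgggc
TUBB2B: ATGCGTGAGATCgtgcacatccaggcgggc
TUBB3: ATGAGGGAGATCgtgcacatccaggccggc
TUBB4B: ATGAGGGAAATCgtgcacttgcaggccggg
TUBB6: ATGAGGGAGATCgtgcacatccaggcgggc
The capitals fall into 6 spellings. TUBA1A, TUBA1B and TUBA1C share all 30 bases, TUBB and TUBB4B share their capitals, and so do TUBB3 and TUBB6. TUBA4A, TUBB2A and TUBB2B each have capitals of their own. These are differences in letters only: the capitals encode the same amino acids in all alpha members, and likewise in all beta members.

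The members lie on 6 chromosomes (coordinates of the RefSeq annotation of GRCh38.p14). TUBA1B (chr12:49127782-49131395, minus strand), TUBA1A (chr12:49184795-49189080, minus strand) and TUBA1C (chr12:49227926-49274600, plus strand) form a cluster, with 53399 bases between TUBA1B and TUBA1A and 38845 between TUBA1A and TUBA1C. TUBB2A (chr6:3153666-3157544, minus strand) and TUBB2B (chr6:3224277-3227653, minus strand) are 66732 bases apart. TUBB lies at chr6:30720352-30725422 on the plus strand and TUBB3 at chr16:89921925-89936097 on the plus strand. The other members overlap further genes: TUBA4A (chr2:219249710-219254740, minus strand) overlaps STK16 and TUBA4B, TUBB4B (chr9:137241287-137243707, plus strand) overlaps CIMIP2A, and TUBB6 (chr18:12307669-12329826, plus strand) overlaps AFG3L2. The sources used here do not say whether counting used the strand, so reads in the overlapping parts cannot be told apart.

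Near-identical copies limit how reads are divided among the members. The coding sequences of TUBB2A and TUBB2B were 98.2% identical, those of TUBA1B and TUBA1C 97.3% and those of TUBA1A and TUBA1B 97.2%. Alpha members were 85.0% to 97.3% identical to each other, beta members 81.7% to 98.2%, and an alpha and a beta member 61.0% to 65.9%. Of all stretches of 100 bases in the transcript, 54.4% of TUBB2A, 42.4% of TUBB2B, 32.1% of TUBA1B, 18.3% of TUBA1A and 11.5% of TUBA1C also occurred in another member, against 0% of TUBA4A, TUBB and TUBB6. TUBB3 shared 89.0% of its stretches with AC092143.1, a read-through gene of the annotation, and TUBB shared 5.10% with the pseudogene TUBBP1. The split of reads within TUBA1A, TUBA1B and TUBA1C, and within TUBB2A and TUBB2B, is therefore uncertain, and sums over the copies are given where the members are described.

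**Figure D1:**
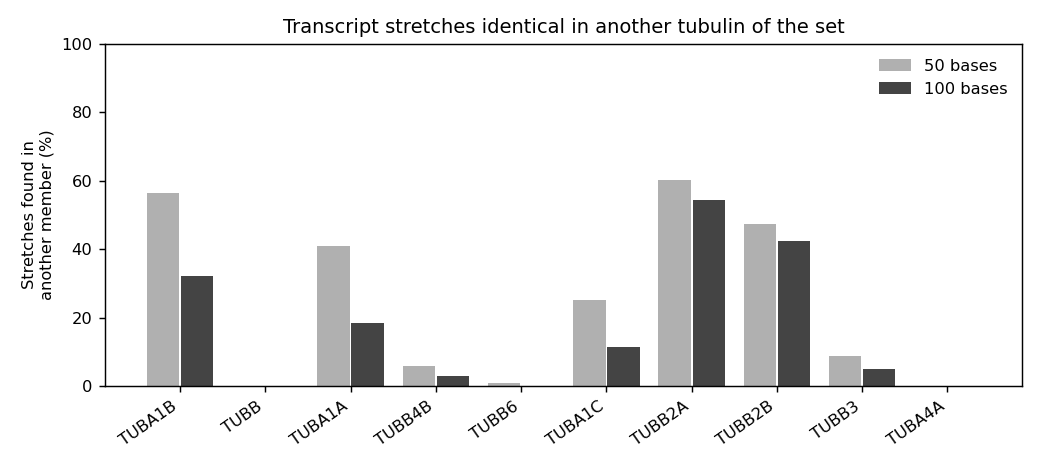
Percent of all stretches of 50 bases (light bars) and 100 bases (dark bars) in the transcript of each member that also occur in the transcript of another member. TUBB2A, TUBB2B, TUBA1B, TUBA1A and TUBA1C carry the most shared sequence, while TUBB and TUBA4A have none at either length.

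In the control libraries the mean level of the members spanned 4.66 to 1012 FPKM. TUBA1B was the most abundant, with 761 and 1263 FPKM in control 1 and control 2. TUBB followed with 477 and 596 FPKM and TUBA1A with 435 and 498 FPKM, and the ranges of these latter genes overlapped. TUBB4B and TUBB6 came next, also with overlapping ranges, then TUBA1C, TUBB2A, TUBB2B, TUBB3 and TUBA4A, each below the range of the gene before it. TUBB3, the isotype best known from neurons, was at 5.81 and 6.80 FPKM.

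**Figure D2:**
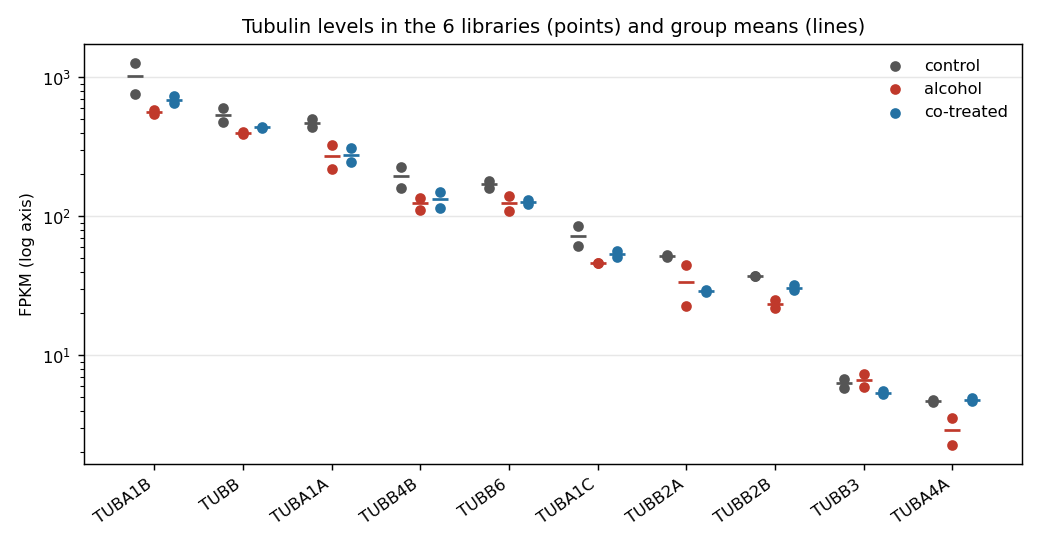
Level (FPKM, log axis) of each tubulin gene in the 6 libraries, with a point for each library, a line for the mean of each group of 2, and genes in order of their control level. In the alcohol libraries all genes but TUBB3 lie below both control points, and the order of the genes from TUBA1B down to TUBA4A spans more than 2 powers of 10.

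The alpha members other than TUBA4A were lower in every alcohol-exposed library than in either control library. TUBA1B, a widely expressed alpha isotype, stood at 761 and 1263 FPKM in the control libraries, at 576 and 545 in the alcohol libraries and at 732 and 648 in the co-treated libraries. Its mean was 1012 ± 355 FPKM for control, 561 ± 22.4 for alcohol and 690 ± 59.5 for co-treated cells (SD, n = 2 each). The control libraries lay far apart while the 4 exposed libraries lay close together, and no exposed library reached the lower control library. The log2 fold change by edgeR was −0.89 (SE 0.19) in alcohol and −0.60 (SE 0.19) in co-treated cells, both against control. Without control 2 these were −0.48 and −0.20, so much of the size rested on that library.

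TUBA1A, the alpha isotype best known from the developing brain, was at 435 and 498 FPKM in control, 325 and 218 in alcohol and 244 and 308 in co-treated cells. The alcohol and co-treated libraries overlapped each other and all lay below the control libraries, with a log2 fold change of −0.81 in alcohol and −0.80 in co-treated cells (SE 0.19 each). The value in alcohol was −0.52 without alcohol 2 and −1.16 without alcohol 1. TUBA1C, another widely expressed alpha isotype, was at 60.6 and 84.5 FPKM in control, 46.1 and 46.0 in alcohol and 56.4 and 50.9 in co-treated cells. The pair of alcohol libraries almost coincided, and the co-treated libraries fell between them and control. Its log2 fold change was −0.69 in alcohol and −0.48 in co-treated cells (SE 0.15 each), and −0.43 and −0.24 without control 2. With the counts of TUBA1A, TUBA1B and TUBA1C summed, so that the division of reads among them played no part, the log2 fold change was −0.85 in alcohol and −0.65 in co-treated cells. Of the stretches of 100 bases in TUBA1B 37.2% occurred in any other gene and 32.1% in another member, so sharing with further genes remained.

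TUBA4A encodes an alpha tubulin without the terminal tyrosine that the others carry. It was the least abundant member, at 4.73 and 4.60 FPKM in control, 3.53 and 2.26 in alcohol and 4.89 and 4.70 in co-treated cells. It was low in the alcohol libraries only, and its co-treated range overlapped that of control. These levels rest on few reads: alcohol 2 held 23 counts, with an exact Poisson interval (95%, counting error only) of 14.6 to 34.5, and control 2 held 48 counts, with an interval of 35.4 to 63.6. Its log2 fold change against control was −0.72 (SE 0.30) in alcohol and 0.01 (SE 0.29) in co-treated cells, and the first was −0.40 without alcohol 2 and −1.11 without alcohol 1.

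Among the beta members, TUBB, the widely expressed class I isotype, was at 477 and 596 FPKM in control, 401 and 388 in alcohol and 436 and 435 in co-treated cells. The 3 groups did not overlap, with alcohol lowest and control highest. The log2 fold change was −0.48 in alcohol and −0.35 in co-treated cells (SE 0.13 each), the smallest difference among the members above 100 FPKM in control, and without control 2 it was −0.31 and −0.19.

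TUBB4B, a class IV isotype that is widely expressed and found in cilia, was at 161 and 226 FPKM in control, 136 and 111 in alcohol and 150 and 114 in co-treated cells. TUBB6, the class V isotype, was at 159 and 179 FPKM in control, 139 and 109 in alcohol and 131 and 122 in co-treated cells. For both genes the alcohol and co-treated ranges overlapped and lay below both control libraries. The log2 fold change of TUBB4B was −0.68 in alcohol and −0.59 in co-treated cells (SE 0.17 each), and that of TUBB6 was −0.61 in both (SE 0.16). Without control 2 the values of TUBB4B were −0.42 and −0.35, and in alcohol that of TUBB6 was −0.36 without alcohol 2.

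The class II isotypes are near-identical copies known mainly from neurons. TUBB2A was at 50.8 and 52.9 FPKM in control, 44.2 and 22.5 in alcohol and 29.3 and 28.4 in co-treated cells. TUBB2B was at 37.2 and 37.0 FPKM in control, 25.0 and 21.8 in alcohol and 31.8 and 29.3 in co-treated cells. Both were below control in all 4 exposed libraries, but the alcohol libraries of TUBB2A differed widely: its log2 fold change in alcohol was −0.66 with both, −0.23 without alcohol 2 and −1.27 without alcohol 1. In co-treated cells the log2 fold change against control was −0.89 for TUBB2A and −0.33 for TUBB2B. Summed over both copies the log2 fold change was −0.68 in alcohol and −0.60 in co-treated cells.

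TUBB3, the class III isotype used as a marker of neurons, departed from this pattern. It was at 5.81 and 6.80 FPKM in control, 7.30 and 5.88 in alcohol and 5.25 and 5.51 in co-treated cells. The alcohol range overlapped that of control, while both co-treated libraries lay below it. The log2 fold change was 0.04 (SE 0.25) in alcohol and −0.25 (SE 0.26) in co-treated cells, at 46.7 to 66.6 expected counts a library, and the value in alcohol ran from −0.16 without alcohol 1 to 0.23 without alcohol 2.

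Counted over the set, 9 of 10 members had both alcohol libraries below both control libraries, TUBB3 being the exception, where 17.7% of all genes tested did so. In co-treated cells 9 of 10 lay below control, TUBA4A being the exception, against 16.3% of all genes. In all 4 exposed libraries 8 of 10 lay below both control libraries, against 8.39% of all genes. Leaving out a library can only keep or raise this number, so it could not fall. It stayed at 8 with any single library left out, where 11.1% to 19.6% of all genes lay below control. Because the members were chosen for this shift, nothing is read from these counts. The 2 contrasts share the control libraries. The median log2 fold change of the members was −0.69 in alcohol, −0.54 in co-treated and −0.60 in all exposed libraries, each against control, while the median over all genes tested was −0.0033, −0.0017 and −0.0066. Without control 2 the members' medians were −0.48, −0.29 and −0.39, and without alcohol 2 the first was −0.46.

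**Figure D3:**
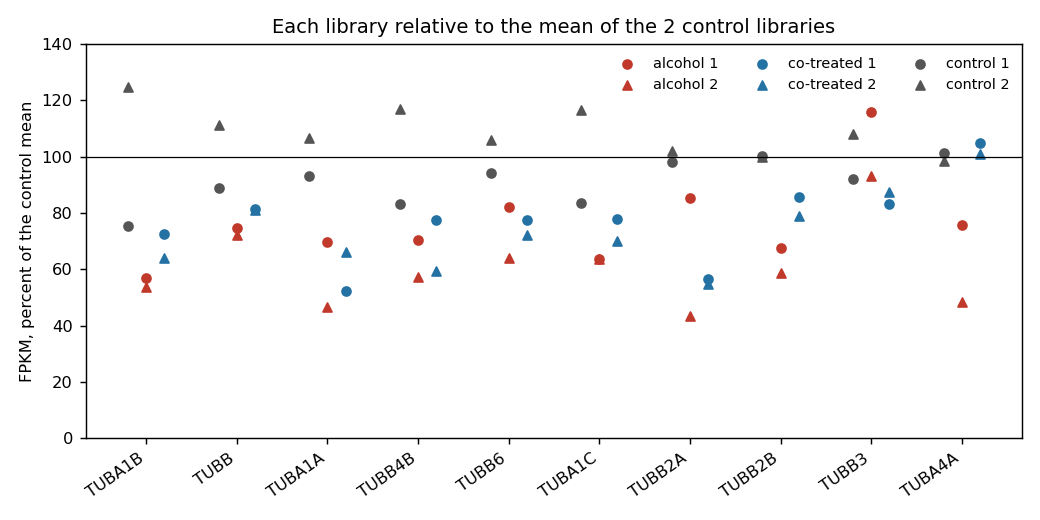
Level of each tubulin gene in each library as a percent of the mean of the 2 control libraries (line at 100). For 8 genes all 4 alcohol-exposed points lie below both control points, while TUBB3 in alcohol and TUBA4A in co-treated cells reach or pass the control points.

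In the exposed libraries the summed alpha pool was further below control than the summed beta pool. The 4 alpha members together came to 1262 and 1851 FPKM in control, 951 and 811 in alcohol and 1038 and 1012 in co-treated cells. The 6 beta members came to 891 and 1098 FPKM in control, 753 and 658 in alcohol and 783 and 734 in co-treated cells. Relative to the control mean the alpha pool was at 56.6% in alcohol and 65.9% in co-treated cells, and the beta pool at 70.9% and 76.3%. Control 2 was the higher control library in both pools, and by more in the alpha pool, so these percents rest partly on that library. The ratio of alpha to beta FPKM was 1.42 and 1.69 in control, 1.26 and 1.23 in alcohol and 1.33 and 1.38 in co-treated cells, so that no exposed library reached the lower control library. Both pools together took 0.427% and 0.580% of all expected counts in control, 0.339% and 0.294% in alcohol and 0.361% and 0.349% in co-treated cells.

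The shares of the isotypes within each pool were compared next. TUBA1B gave 64.3% ± 5.60 of the alpha FPKM for control, 63.9% ± 4.65 for alcohol and 67.3% ± 4.59 for co-treated cells (SD, n = 2), ranges that overlapped. TUBB gave 53.5% and 54.3% of the beta FPKM in control, 53.3% and 59.0% in alcohol and 55.7% and 59.2% in co-treated cells, so that only the co-treated libraries both lay above control. TUBB4B and TUBB6 each gave between 15.6% and 20.6% of the beta FPKM in every library. The share of TUBB3 was 0.652% and 0.619% in control, 0.970% and 0.894% in alcohol and 0.670% and 0.750% in co-treated cells, so that this minor isotype took a larger share in both alcohol libraries than in any other. That of TUBA4A was 0.375% and 0.249% of the alpha FPKM in control, 0.371% and 0.279% in alcohol and 0.471% and 0.464% in co-treated cells, highest in the co-treated libraries. The FPKM of TUBB3 in alcohol and of TUBA4A in co-treated cells overlapped control, while the summed pools were lower there. Both shares rest on few counts, 46.7 to 66.6 a library for TUBB3 and 23 to 50.9 for TUBA4A.

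The co-treated libraries against the alcohol libraries show what changed when losartan was added to alcohol. This contrast was not used to choose the members, although it shares the alcohol-exposed libraries with that choice. With edgeR's quasi-likelihood test and Benjamini-Hochberg adjustment over all genes tested, 0 of 10 members passed the threshold of 0.05, where 0.0134% of all genes did. At an unadjusted p under 0.05 there were 2 of 10 members, TUBB2B and TUBA4A, where 5.55% of all genes passed, and DESeq2 and limma also called 0. TUBB2B was higher in both co-treated libraries, with a log2 fold change of 0.37 (SE 0.14, 95% interval 0.07 to 0.68, adjusted p = 0.857 by edgeR). TUBA4A was higher in both as well, with a log2 fold change of 0.73 (SE 0.30, 95% interval 0.08 to 1.38, adjusted p = 0.882 by edgeR). Without alcohol 2 these fold changes were 0.24 for TUBB2B and 0.41 for TUBA4A, and without alcohol 1 that of TUBA4A was 1.12. Over the alternative settings the adjusted p ran from 0.625 to 1 for TUBB2B and from 0.620 to 1 for TUBA4A.

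For the abundant members the intervals of this difference bounded its size. The log2 fold change of co-treated against alcohol was 0.29 for TUBA1B (95% interval −0.11 to 0.69), 0.13 for TUBB (−0.16 to 0.42), 0.08 for TUBB4B (−0.29 to 0.46), 0.01 for TUBA1A (−0.40 to 0.42) and −0.0044 for TUBB6 (−0.35 to 0.34). TUBA1C was at 0.21 (−0.11 to 0.53), TUBB2A at −0.22 (−0.74 to 0.30) and TUBB3 at −0.30 (−0.85 to 0.25). Differences of more than 0.69 in either direction thus lay outside the intervals of TUBA1A, TUBA1C, TUBB, TUBB2B, TUBB4B and TUBB6. Summed over TUBA1A, TUBA1B and TUBA1C the log2 fold change was 0.20 (adjusted p = 0.937 by edgeR), and over TUBB2A and TUBB2B it was 0.09 (adjusted p = 0.971 by edgeR).

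In ranges, 5 members (TUBA1B, TUBA1C, TUBA4A, TUBB and TUBB2B) had both co-treated libraries above both alcohol libraries, where 18.0% of all genes did. TUBB3 had both below, where 14.3% of all genes did, and the other 4 overlapped. The median log2 fold change of the members was 0.11, against 0.0023 over all genes tested. It was 0.32 without alcohol 1 and −0.0111 without alcohol 2, so its direction rested on that library.

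**Figure D4:**
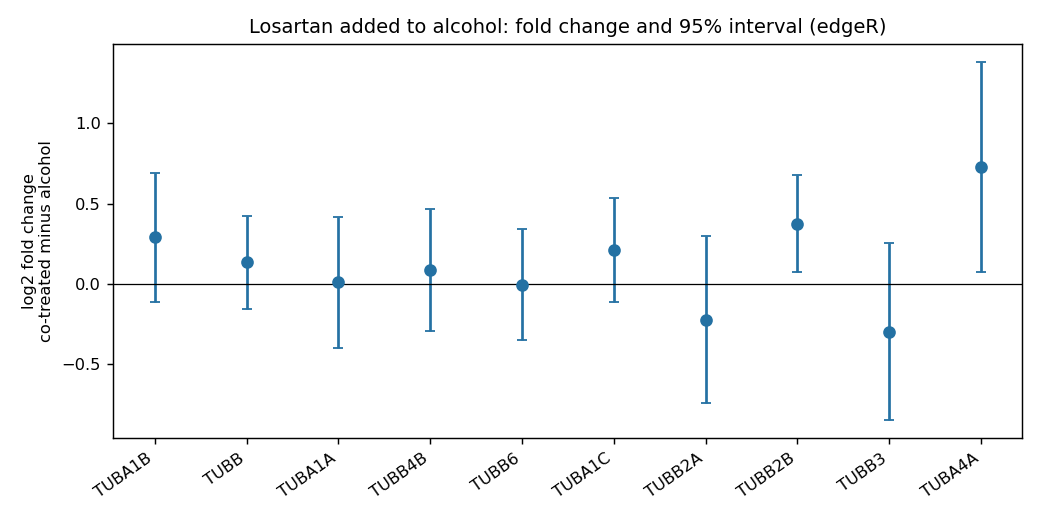
Log2 fold change of co-treated against alcohol libraries for each tubulin gene (points) with its 95% interval from the edgeR fit (bars) and a line at 0. The intervals of TUBB2B and TUBA4A lie above 0 before adjustment and the other 8 intervals include 0.

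The members also varied together from library to library. The mean log2 CPM of the 10 genes, counts scaled to library size, was 7.30 and 7.54 in control, 7.01 and 6.58 in alcohol and 6.96 and 6.92 in co-treated cells, so control 2 was highest and alcohol 2 lowest. Pearson's r of a member with the mean of the other members over the 6 libraries was 0.976 for TUBB6, 0.947 for TUBB and 0.934 for TUBB4B, and was lowest for TUBA4A (0.632) and TUBB3 (0.389). Of the 45 pairs of members 44 had an r above 0, with a median of 0.809. These values describe 6 libraries that share their group differences, the members were chosen for those, and close copies share reads.

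Among the 10771 genes tested with a mean of at least 10 CPM, those whose log2 CPM followed the tubulin mean most closely over the 6 libraries were SNRPD1 (r = 0.989), a core protein of the spliceosome, TMX2 (0.989), a membrane protein of the thioredoxin family, NSDHL (0.987), an enzyme of cholesterol synthesis, SRM (0.985), which makes spermidine, S100A10 (0.984), a partner of annexin A2, and HDAC3 (0.984), a histone deacetylase. NSDHL was at 33.2 and 40.7 FPKM in control, 27.7 and 19.6 in alcohol and 24.8 and 26.5 in co-treated cells. SRM was at 14.2 and 18.01 FPKM in control, 11.97 and 7.47 in alcohol and 11.9 and 11.1 in co-treated cells. Both had their highest level in control 2 and their lowest in alcohol 2, as the tubulin mean did. TMX2 and HDAC3 varied over a narrow range, with a log2 fold change of −0.15 and −0.13 in all exposed libraries against control.
The genes most opposed to the tubulin mean were GDAP2 (r = −0.991), ADAMTS19 (−0.988), a secreted metalloproteinase, and LPCAT4 (−0.988), an acyltransferase of phospholipids. ADAMTS19 was at 5.59 and 4.99 FPKM in control, 7.83 and 12.1 in alcohol and 9.27 and 9.03 in co-treated cells, lowest in control 2 and highest in alcohol 2. GDAP2 was opposed in counts, with a log2 fold change of 0.30 in all exposed libraries, while its FPKM ran from 2.53 to 3.47 without that order. All 9 genes kept an r beyond 0.9 in size with any library left out. They were picked as the extremes of 10771 genes over these same 6 libraries, which makes this likely, so nothing is read from it.

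The rest of the tubulin family and the genes that fold, modify, bind and move along microtubules were read from lists, with calls by edgeR over all genes tested. At an unadjusted p under 0.05 edgeR passed 11.0% of all genes in alcohol against control, 12.6% in co-treated against control, 13.5% in all exposed libraries against control and 5.55% in co-treated against alcohol. Of 12 further tubulins 5 were tested and 0 were called in any contrast, 0 of them also at an unadjusted p under 0.05, and the 7 others held at most 11 counts in any library. TUBG1, the main gamma tubulin of nucleation, was at 19.7 and 22.4 FPKM in control, 19.7 and 13.1 in alcohol and 18.9 and 16.3 in co-treated cells. TUBG2, its close relative, was at 11.7 and 11.97 FPKM in control, 9.44 and 10.4 in alcohol and 10.8 and 9.93 in co-treated cells. TUBG2 lay below control in all 4 exposed libraries and TUBG1 in both co-treated libraries but not in both alcohol libraries, and the log2 fold change over all exposed libraries was −0.27 and −0.35. TUBB4A, a beta isotype of the brain, ranged from 1.84 to 4.33 FPKM, and TUBD1, the delta tubulin of centrioles, from 6.85 to 9.74 FPKM, both with overlapping groups. TUBE1, the epsilon tubulin of centrioles, was at 5.13 and 5.23 FPKM in control, 4.28 and 4.94 in alcohol and 4.50 and 5.93 in co-treated cells, so that both alcohol libraries lay below control while the co-treated range overlapped it. The other family members above 1 FPKM in any library came to TUBA8 alone, at 0.29 to 1.03 FPKM.

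New tubulin is folded by prefoldin, the CCT chaperonin and the tubulin cofactors. Of 21 such genes 1 was called lower and 0 higher in all exposed libraries against control. Of all genes 0.556% were called there and 0.234% were called lower. In the list 15 of 21 had a log2 fold change below 0, with a median of −0.15, where 51.2% of all genes were below 0. At an unadjusted p under 0.05 by edgeR there were 3 of 21, all lower, where 13.5% of all genes passed. The gene called was CCT2, a subunit of the chaperonin ring, at 75.1 and 91.4 FPKM in control, 60.0 and 50.6 in alcohol and 47.1 and 57.7 in co-treated cells. Its log2 fold change was −0.67 (SE 0.13, adjusted p = 0.0404 by edgeR), and all 4 exposed libraries lay below control. The call was lost without control 2, alcohol 2, co-treated 1 or co-treated 2. Against control, CCT2 was at −0.62 in alcohol (adjusted p = 0.147) and −0.71 in co-treated cells (adjusted p = 0.0668), both by edgeR, where 0.0670% and 0.362% of all genes were called. CCT5, another subunit, was at 50.5 and 50.3 FPKM in control, 42.9 and 36.2 in alcohol and 37.7 and 39.0 in co-treated cells (log2 fold change −0.41, adjusted p = 0.109 by edgeR). Between the exposed groups 0 of 21 folding genes were called, 0 of them also at an unadjusted p under 0.05.

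TTC5, the factor of tubulin autoregulation, was at 4.12 and 5.40 FPKM in control, 5.70 and 5.88 in alcohol and 5.88 and 5.41 in co-treated cells. The exposed libraries lay above both control libraries, by as little as 5.41 against 5.40 FPKM, with a log2 fold change of 0.22 (SE 0.22, adjusted p = 0.723 by edgeR) over all exposed libraries.

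Among the enzymes that modify tubulin, 24 genes were listed and 17 tested, and 0 were called by edgeR in any contrast, with 3 of 17 at an unadjusted p under 0.05 in all exposed libraries against control (13.5% of all genes). TTLL1, a glutamylase subunit, was at 10.7 and 9.58 FPKM in control, 13.7 and 14.1 in alcohol and 16.3 and 15.1 in co-treated cells (log2 fold change 0.50, adjusted p = 0.163 by edgeR). VASH1, a carboxypeptidase that removes the terminal tyrosine of alpha tubulin, was at 39.9 and 40.6 FPKM in control, 36.4 and 27.2 in alcohol and 32.8 and 27.6 in co-treated cells (log2 fold change −0.42, adjusted p = 0.165 by edgeR). Neither group of exposed libraries overlapped control in these genes. SIRT2, a deacetylase of alpha tubulin, had the smallest p in alcohol against control (log2 fold change 0.56, adjusted p = 0.311 by edgeR). Between the exposed groups TTLL12 was at −0.49 (adjusted p = 0.857) and TTL, the tyrosine ligase, at 0.25 (adjusted p = 0.90), both by edgeR.

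Of 35 genes of microtubule binding and stability 32 were tested and 0 were called by edgeR, with 4 of 32 at an unadjusted p under 0.05 in each contrast (11.0% to 13.5% of all genes in the contrasts with control and 5.55% in co-treated against alcohol). MID1, a ubiquitin ligase that binds microtubules, was at 16.4 and 14.9 FPKM in control, 11.7 and 11.3 in alcohol and 12.6 and 10.5 in co-treated cells (log2 fold change −0.49, adjusted p = 0.0960 by edgeR). STMN1, stathmin, which binds free tubulin dimers, was at 238 and 303 FPKM in control, 183 and 225 in alcohol and 230 and 207 in co-treated cells (log2 fold change −0.40, adjusted p = 0.136 by edgeR). For both genes all exposed libraries lay below control. The median of this list was 0.0055 in all exposed libraries against control. Between the exposed groups STMN3 (−1.61, from under 2 FPKM in every library) and MAP6 (−0.54) had the smallest p, each with an adjusted p of 0.882 by edgeR.

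Of the 12 nucleation genes 0 were called by edgeR, with 1 at an unadjusted p under 0.05 in each contrast of the co-treated cells and 0 in the others, and the median in all exposed libraries against control was −0.04. NEDD1, which brings the gamma tubulin ring to its sites, had a log2 fold change of −0.32 in alcohol (adjusted p = 0.452 by edgeR), and MZT1, a small subunit of that ring, −0.33 (adjusted p = 0.611 by edgeR). PCNT, pericentrin, was at −0.44 in co-treated cells against control (adjusted p = 0.278 by edgeR) and at −0.39 against alcohol (adjusted p = 0.882 by edgeR), and MZT2B at −0.28 and −0.34. None of the 12 was below control in every exposed library or above it in every one.

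Of 34 motor genes 33 were tested and 0 were called by edgeR, with 5 of 33 at an unadjusted p under 0.05 in all exposed libraries against control (13.5% of all genes) and a median of −0.05. DYNLL1, a dynein light chain, was at 201 and 245 FPKM in control, 157 and 141 in alcohol and 164 and 189 in co-treated cells (log2 fold change −0.50, adjusted p = 0.0716 by edgeR). KLC2, a kinesin light chain, was at 10.7 and 10.0 FPKM in control, 7.59 and 8.78 in alcohol and 6.68 and 6.58 in co-treated cells (log2 fold change −0.52, adjusted p = 0.122 by edgeR). Both lay below control in every exposed library, while KLC4, another light chain, lay above it, at 12.7 and 11.6 FPKM in control, 16.9 and 16.3 in alcohol and 16.2 and 16.7 in co-treated cells. KIF1C, a kinesin of vesicle transport, was at −0.45 in co-treated cells against control (adjusted p = 0.172 by edgeR) and at −0.26 against alcohol, where BICD2, a dynein adaptor, was at −0.32 (adjusted p = 0.90 by edgeR for both). Over all lists DESeq2 called 1 gene lower in alcohol, 1 in co-treated and 2 in all exposed libraries against control, and none higher. DESeq2 called more of all genes than edgeR in each of these contrasts, 72 against 10 in alcohol. The other counts are given with the processing alternatives, and nothing about the lists is read from these calls.

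**Figure D5:**
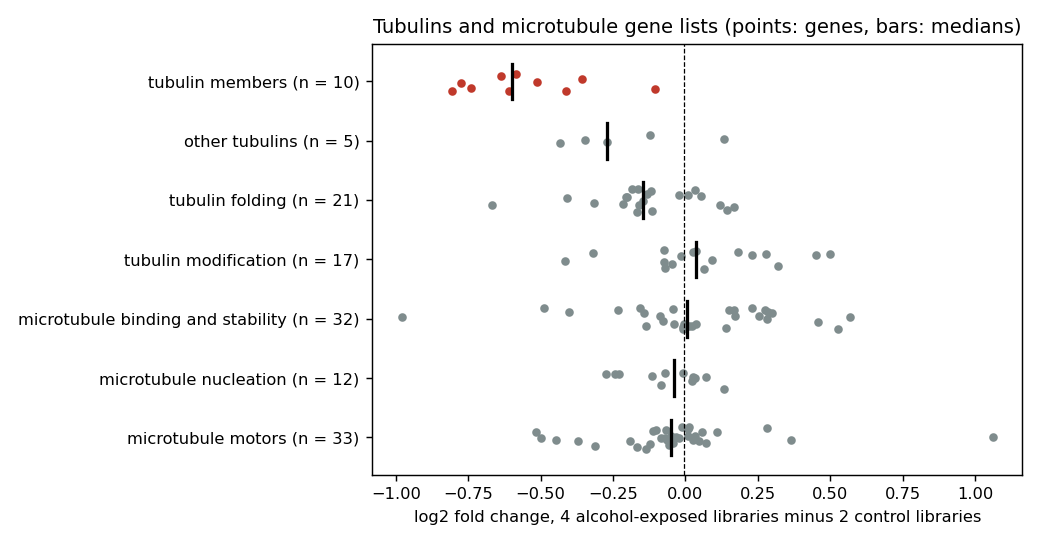
Log2 fold change of the 4 alcohol-exposed libraries against the 2 control libraries, with a point for each gene tested, a bar for the median of each list and a dashed line at the median of all genes tested. The tubulin members, chosen for this shift, have a median of −0.60, the other tubulins −0.27, the folding genes −0.15, and the medians of the modification, binding, nucleation and motor lists lie between −0.05 and 0.04. The far points are genes of low level such as MAP2 (−0.98) and KIF5C (1.06).

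Markers of the labelled and of other cell types were read in the same libraries. All 12 cardiomyocyte markers were above 1 FPKM in every library, MYL7 highest and RYR2 lowest, and their summed level was 30512 and 31063 FPKM in control and 22052 to 29164 in the exposed libraries. MYL7 alone had a mean of 15346 FPKM in control and 11005 in the exposed libraries, while RYR2 lay above control in every exposed library. Over all exposed libraries against control 5 of 12 had a log2 fold change above 0 and 7 below. Of all genes tested 51.2% were below. The summed smooth muscle markers, TAGLN highest and MYH11 lowest, were lower in every exposed library than in control. They came to 2011 and 1775 FPKM in control, 1535 and 809 in alcohol and 1072 and 1119 in co-treated cells. Of the 6 markers 3 lay below control in every exposed library, where 8.39% of all genes did, and the others overlapped it. ACTA2 was called lower in all exposed libraries (log2 fold change −1.14, adjusted p = 0.0127 by edgeR) as 1 of 6 markers, where 0.234% of all genes were. The 8 markers of proliferating cells, TOP2A highest and MKI67 lowest, summed to 148 and 255 FPKM in control, 105 and 133 in alcohol and 212 and 165 in co-treated cells. Of these 8, 0 were called by edgeR, 8 were lower in alcohol than in control at an unadjusted p under 0.05, where 5.78% of all genes were, and 7 were higher in co-treated than in alcohol cells, where 2.84% were. Only 4 of the 8 had both alcohol libraries below both control libraries, where 17.7% of all genes did, and control 2 had the highest sum. The summed neural markers, nearly all of them NES, were at 266 and 238 FPKM in control and 139 to 236 in the exposed libraries, with ELAVL4 lowest and 3 of 10 markers at 3 counts or fewer in every library. Fibroblast markers, COL3A1 highest and TCF21 lowest, were at 465 and 421 FPKM in control and 467 to 518 in the exposed libraries. Endothelial markers, KDR highest and VWF lowest, summed to 6.90 and 5.88 FPKM in control and were higher in every exposed library, at 7.56 to 10.7, with KDR at a log2 fold change of 0.71 in all exposed libraries (adjusted p = 0.0541 by edgeR). KDR alone went from a mean of 3.85 FPKM in control to 6.52 in the exposed libraries. Of the 4 markers tested 2 had a log2 fold change above 0 and 2 below. Endoderm markers, AFP highest and HNF4A lowest, were at 38.5 and 36.7 FPKM in control and 46.7 to 49.6 in the exposed libraries, and pluripotency markers, POU5F1 highest and TDGF1 lowest, overlapped at 13.5 to 22.2. The part of these cell types in the tubulin values was not tested, and in bulk RNA fewer cells of a type and less RNA per cell cannot be told apart.

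The upstream sequence of the genes was searched for 4 short motifs as a description. In the 250 bases before the RefSeq start nearest to the transcript used, read on both strands, CCAAT was found in 7 of 10 members and in 32.0% of 35116 promoters, and GGGCGG, the core of a GC box, in 8 of 10 members and in 42.6%. TATAAA was found in TUBB2A alone, and in 10.7% of all promoters, and ACGTG in TUBA1A and TUBA1C, and in 18.5%. TUBA1B, TUBA4A and TUBB2A had no CCAAT in this window, and TUBA1A and TUBB4B no GGGCGG. The sequences of the most abundant alpha and beta members and of TUBB4B, which held 3 copies of CCAAT, are given 5′ to 3′ on the strand of the gene, with CCAAT or its reverse complement in capitals (GRCh38.p14: TUBA1B chr12:49131396-49131645, minus strand, TUBB chr6:30720102-30720351 and TUBB4B chr9:137241037-137241286, plus strand).
TUBA1B: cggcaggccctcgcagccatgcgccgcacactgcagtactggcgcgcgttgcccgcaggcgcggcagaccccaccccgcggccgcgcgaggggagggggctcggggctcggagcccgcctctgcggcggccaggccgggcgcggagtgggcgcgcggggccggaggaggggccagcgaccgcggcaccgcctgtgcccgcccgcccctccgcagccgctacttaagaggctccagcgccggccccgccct
TUBB: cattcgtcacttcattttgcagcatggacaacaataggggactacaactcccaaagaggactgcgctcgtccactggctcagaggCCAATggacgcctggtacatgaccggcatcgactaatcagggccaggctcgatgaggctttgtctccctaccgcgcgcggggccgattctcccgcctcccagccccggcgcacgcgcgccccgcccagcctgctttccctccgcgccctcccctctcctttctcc
TUBB4B: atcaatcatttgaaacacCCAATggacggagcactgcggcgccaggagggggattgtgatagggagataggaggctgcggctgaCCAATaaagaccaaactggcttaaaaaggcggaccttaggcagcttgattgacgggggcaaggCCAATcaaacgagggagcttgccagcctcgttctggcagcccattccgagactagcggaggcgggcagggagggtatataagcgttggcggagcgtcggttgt
TUBA1B had no CCAAT and 81.2% G and C, and TUBB had 1 CCAAT and 63.6% G and C. Whether the motifs bear on the levels was not tested. A motif match describes letters and was not tested for binding.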

How the data were processed

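Total RNA of 6 libraries, 2 for each of 3 groups, was sequenced, with groups taken from the treatment named in the labels. The authors deposited library tables of expected counts, transcript length and FPKM (expected counts scaled by length and by mapped reads), and 1 joint table repeating the FPKM beside gene symbols. The submitters' processing notes name HISAT2 2.0.4, Bowtie2 2.2.5, RSEM 1.2.12 and the build hg38. Of the deposited expected counts 33.9% were not whole, and they were rounded for testing. Totals were 4898287 to 5051448 per library, and a count of 0 allows up to 3 counts, counting error only. The labels do not say that replicates were separate cultures, so p-values measure only the spread between these libraries, which may be technical. Replicates differed by more than sampling noise (chi-square per degree of freedom 4.46 to 7.30).

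edgeR 4.0.16 (R 4.3.3) was fitted to all 6 libraries with TMM, filterByExpr and the two-sided quasi-likelihood F test, with Benjamini-Hochberg adjustment at 0.05 over 14926 genes, and was tested on simulated data. Fold changes are log2 and intervals 95%. The members and gene lists were chosen with earlier results of these data known. Named were all members, further tubulins above 1 FPKM, TTC5, list genes called or, where none was, those of smallest p, the 6 genes most and 3 least correlated with the mean log2 CPM (prior count 2) of the members, and the highest and lowest marker of each list. MAP2 and KIF5C, ACTA2 and NES, CCT5 beside CCT2, and the genes sharing or overlapping sequence were named after their values were seen. Of 25 modification genes 24 were listed, 2 of them under older symbols.

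Alternatives were DESeq2 1.42.0, DESeq2-type size factors, no filter, at least 10 counts in every library, limma 3.58.1 on log2(FPKM + 1) and log2(FPKM + 0.1), a block for the replicate number, a fit to the compared libraries alone, each library left out, copies summed, and counts in place of FPKM for shares. The count of members below control with a library left out was chosen after seeing the data. Coding sequences came from GENCODE 29 and promoters and coordinates from RefSeq. Identity was computed with Biopython 1.88.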

Additional observations from a re-analysis of the deposited data

How the results depend on the processing

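Against control, the lower level of the members other than TUBB3 under alcohol, and of the members other than TUBA4A under co-treatment, kept its direction under every alternative run, as their choice for this shift makes likely. The members' median log2 fold change ran, with each library left out, from −0.88 to −0.46 in alcohol, from −0.70 to −0.29 in co-treated and from −0.74 to −0.39 in all exposed libraries against control, and from −0.0111 to 0.32 in co-treated against alcohol cells. No member was called in co-treated against alcohol cells under any of 14 alternatives.

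In that contrast some small differences changed sign: TUBA1A was −0.0013 with no filter, −0.0016 with only the libraries compared and −0.28 to 0.36 with a library left out, TUBB2A was −0.66 to 0.38 and TUBB4B −0.11 to 0.27 with a library left out, and TUBB6 was 0.0409 and 0.0413 by limma on log2(FPKM + 1) and log2(FPKM + 0.1) and −0.25 to 0.28 with a library left out.

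The number of genes called moved most. In alcohol against control it was 10, but 72 by DESeq2, 2 with no filter, 26 with at least 10 counts, 0 and 2 by limma with 1 and 0.1 added, 3 with only the libraries compared and 1 to 220 with a library left out. In co-treated against control it was 54, but 128, 15, 2 and 3 by DESeq2, no filter and limma with 1 and 0.1 added, 158 with only the libraries compared and 2 to 184 with a library left out. In co-treated against alcohol it was 2, but 5 by DESeq2, 1 with no filter, 0 with at least 10 counts, 1 by limma with 1 added, 4 with only the libraries compared and 1 to 24 with a library left out. In all exposed libraries against control it was 83, but 158 by DESeq2, 27 with no filter, 144 with at least 10 counts, 0 and 5 by limma with 1 and 0.1 added and 6 to 407 with a library left out. List genes called lower were 0 in alcohol against control, but 1 by DESeq2 and 0 to 1 with a library left out. In co-treated against control they were 0, but 1 by DESeq2, with at least 10 counts or with only the libraries compared, and 0 to 1 with a library left out. In all exposed libraries they were 1, but 2 by DESeq2, 0 with no filter, 0 and 0 by limma and 0 to 7 with a library left out. The cause was not tested. By counts, which are not scaled by length, the share of TUBB in the beta pool was 65.1% for control, 67.8% for alcohol and 69.0% for co-treated cells.

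The deviations of same-numbered libraries from their group means correlated weakly over the 14926 genes tested. The values were 0.114 between control and alcohol, −0.0162 between control and co-treated and 0.0412 between alcohol and co-treated. Correlations over all genes cannot exclude that the replicate numbers mark pairs, or a batch that some genes share. With the replicate block the genes called were 48 in alcohol and 136 in co-treated against control, 5 in co-treated against alcohol and 256 in all exposed libraries, the list genes called lower were 0, 1, 0 and 3, and TUBB6 was 0.0047 in co-treated against alcohol. With 2 libraries a group and 23 to 67 counts, TUBA4A and TUBB3 were the members least well measured.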
